A study of Homo sapiens with 6 samples.

Results

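The genes that encode voltage-gated and potassium channels were compared between parental H526 cells and onvansertib-resistant H526 cells. H526 is a small cell lung cancer (SCLC) line, and onvansertib is an inhibitor of the mitotic kinase PLK1. The parental group was 3 RNA libraries of H526 cells (numbers 1 to 3). The resistant group was 3 libraries (numbers 7 to 9) of H526 cells that were kept for more than a year in onvansertib raised from 10 to 75 nM. RNA was taken at 3 separate times from each of the lines, and whether the drug was in the medium at those times is not given in the sources used here. The resistant cells are therefore 1 selected line, not stated to be a clone, and the p-values measure the spread between harvests and libraries of these cells. The channel genes were the protein-coding genes whose symbol starts with KCN or CACN, or reads SCN, a digit and A or B. Of 62710 genes in the table, 134 met this rule: 96 potassium channel genes (KCN), 26 calcium channel genes (CACN) and 12 sodium channel genes (SCN). The mean value over the 6 libraries was at least 10 for 74 of them, which were tested, and under 10 for the other 60, of which 14 were listed at 0 in every library.

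Ion channels let charged atoms cross the cell membrane, and voltage-gated channels open or close as the voltage across it changes. Sodium and calcium channels admit positive charge and drive firing, calcium entry and the release of transmitter or hormone. Potassium channels let positive charge out and bring the cell back to rest. A channel has pore-forming subunits, which carry the ions, and often auxiliary subunits, which set its gating or its delivery to the membrane. SCLC cells often have neuroendocrine features, and electrically active neuroendocrine cells use these channels to couple membrane voltage to secretion. H526 belongs to the tuft cell-like form of SCLC that is marked by the transcription factor *POU2F3*.

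The values were normalized read counts made by the authors, so a value is not a whole read. The estimated depth was between 25646145 and 28504804 reads in parental and between 22334724 and 23300785 in resistant libraries. A value worth 3 reads, taken as the limit of detection, was 2.84 in parental and 3.16 in resistant libraries on average, and covers counting error only. Where a gene is given as at least so many-fold lower, its parental mean was divided by the mean resistant limit. The spread of the parental values is not in such a bound. *POU2F3* was at 25810 ± 1178 in parental and 27270 ± 536 in resistant cells (mean ± SD, n = 3 here and throughout) and did not pass the test described below. *YAP1*, which marks a further form of SCLC, was at a low level and rose from 48.9 ± 6.86 to 111 ± 16.1 (adjusted p = 0.00236 by limma). Of the epithelial markers *EPCAM* and *KRT8* were lower, with log2 fold changes of -0.23 and -0.22, and *KRT18* did not pass, with -0.16. The calls of *EPCAM* and *KRT8* were both lost with upper-quartile scaling, with quantile normalization, without the trend and without the filter on low values. Leaving out some of the single libraries also ended them. All 4 neuroendocrine markers (*INSM1*, *SYP*, *CHGA* and *NCAM1*) were lower in resistant cells, with a summed value between 11190 and 12560 in parental and between 4289 and 4991 in resistant libraries. The summed value of 5 fibroblast markers went from between 142 and 191 to between 375 and 599, through *COL1A1* and *COL1A2*. The other fibroblast markers did not go with them, *COL3A1* at 18.04 ± 7.07 and 10.6 ± 4.33, *LUM* at 6.27 ± 6.22 and 4.74 ± 0.21, and *DCN* at or near 0. Of the leukocyte markers *PTPRC* was at or near 0 and *CD3E* at 0, and of the endothelial markers *CDH5* was at 0, *PECAM1* at or near 0 and *VWF* higher in resistant cells (276 ± 54.5 against 465 ± 22.0). The part of these markers in the channel results was not tested, and in bulk RNA fewer cells that express a gene and less of its RNA per cell cannot be told apart.

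Of the 74 channel genes tested, 34 (45.9%) passed the test, 20 with higher and 14 with lower values in resistant cells. Without parental library 1 or without resistant library 8 the higher genes numbered 13, and the lower genes 12 and 16. The test was limma on log2(value + 1), with Benjamini-Hochberg adjustment over all 16347 genes with a mean of at least 10 and a threshold of 0.05. Over all these genes 37.7% passed, 17.8% higher and 19.8% lower, so that many channel genes changed, as did many genes of any kind. The families below hold few genes each, and their counts are to be read beside these shares. The channel genes stood further from this background in the size of the change than in the number of calls. A change of at least 2-fold (an absolute log2 fold change of at least 1) was seen in 18 of them (24.3%), 10 higher and 8 lower, against 9.95% of all genes. Their median absolute log2 fold change was 0.65, against 0.30 for all genes, and their median SD between libraries of a group was also larger, 0.33 against 0.15 on the log2 scale. The median signed log2 fold change was -0.04, against -0.00086 for all genes. In 43 channel genes (58.1%) no parental value lay within the range of the resistant values or the reverse, against 49.9% of all genes, and the 34 that passed were among them. For such a gene the exact two-sided permutation test of its 6 values gives p = 0.10, the smallest p that 3 libraries against 3 allow. Of the 74 tested members, 8 had a mean under 10 in 1 of the groups and entered the test through the other group, against 795 of all 16347 genes. Of these 8, 4 passed, each with a change of at least 2-fold. The 18 genes above therefore include members that were let in by their high group.

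**Figure D1:**
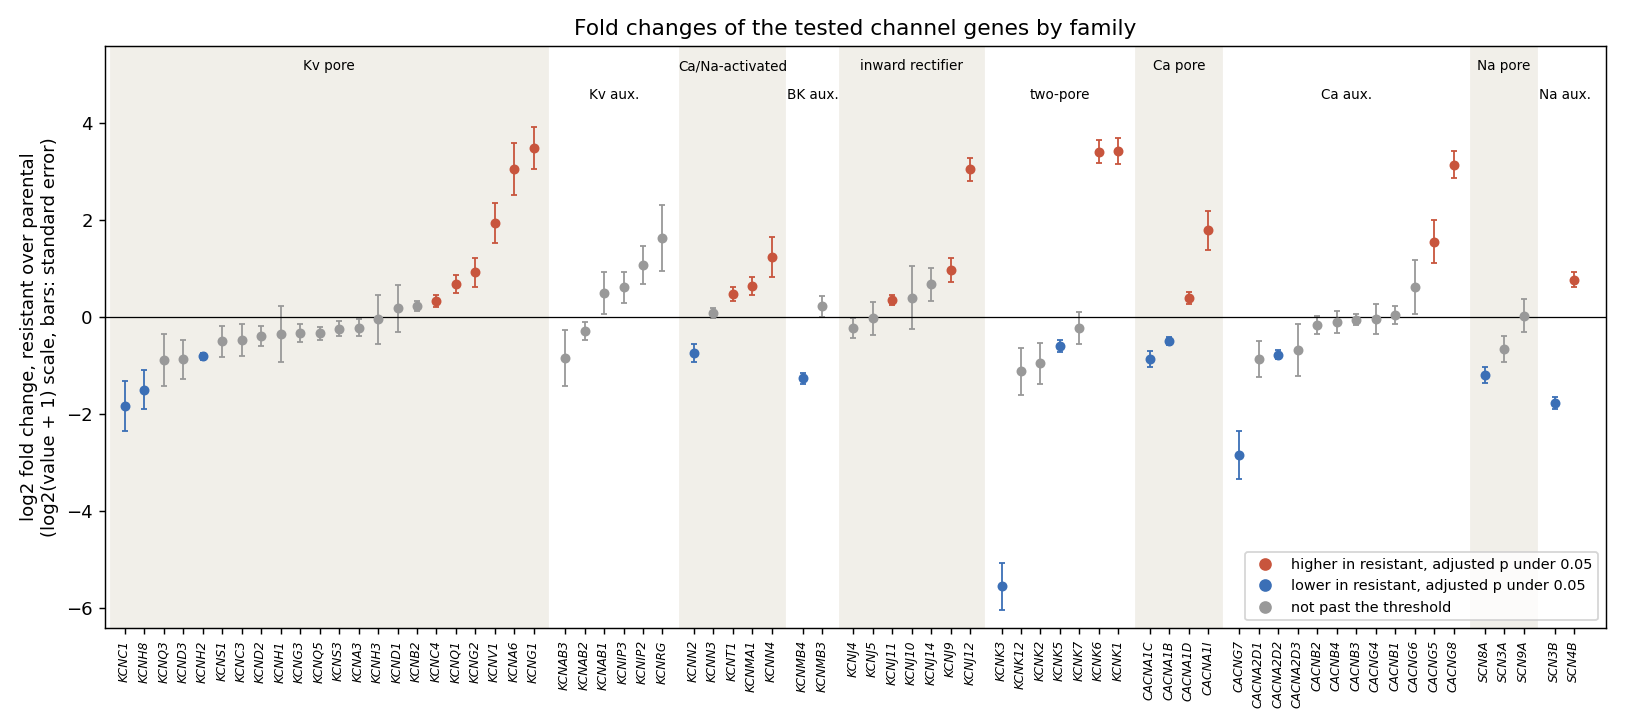
Log2 fold change (vertical axis, log2(value + 1) scale, positive when higher in resistant cells) of 70 of the 74 tested channel genes, ordered within families; points are the limma estimates from 3 libraries per group and bars their standard errors. Red and blue points passed the adjusted p of 0.05. Several families held members that went both ways, with *KCNK3* lowest at -5.55 and *KCNG1* highest at 3.49.

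Background potassium channels of the K2P class (KCNK genes), which leak potassium and hold the resting voltage, had 7 tested members, of which 2 were higher and 2 lower. *KCNK3* (ENSG00000171303, chromosome 2, 26692722 to 26733420), an acid-sensitive background channel whose gene positions, like those below, are on GRCh38, was at 103, 63.2 and 62.9 in the parental libraries and at 1.04, 1.04 and 0 in the resistant libraries. Every resistant library was below the limit of 3 reads, so *KCNK3* was at least 24.2-fold lower in resistant cells (log2 fold change -5.55, standard error 0.48, adjusted p = 1.89e-05 by limma). *KCNK3* entered the test through its parental values. In the opposite direction went *KCNK1* and *KCNK6*, close relatives that pass weak potassium currents and are found largely on internal membranes. *KCNK1* (ENSG00000135750, chromosome 1, 233614106 to 233672514) was at 9.23, 10.0 and 11.1 in parental and at 122, 99.95 and 137 in resistant libraries. *KCNK6* (ENSG00000099337, chromosome 19, 38319845 to 38332076) was at 36.3, 40.5 and 23.4 in parental and at 296, 372 and 418 in resistant libraries. The groups were far apart for both genes, 11.8-fold for *KCNK1* (log2 fold change 3.43, standard error 0.27, adjusted p = 1.08e-05 by limma) and 10.8-fold for *KCNK6* (log2 fold change 3.42, standard error 0.24, adjusted p = 5.29e-06 by limma). *KCNK5*, a background channel opened by alkaline pH, had the highest level per kilobase of transcript in this class and fell from 488 ± 36.6 to 325 ± 36.2. Its share of the class, summed per kilobase, went from 70.8% to 37.5%, while the sum itself was 182 ± 8.05 in parental and 229 ± 24.6 in resistant cells. *KCNK2*, *KCNK7* and *KCNK12* did not pass the test, with log2 fold changes of -0.95, -0.22 and -1.11.

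The promoters of the 3 K2P genes with the largest changes are printed from RefSeq (GRCh38.p14), each from 250 bases before to 50 bases after the start, since these genes moved in opposite directions by more than 10-fold. All 3 are on the plus strand, *KCNK3* at chr2:26692472-26692771, *KCNK1* at chr1:233613856-233614155 and *KCNK6* at chr19:38319595-38319894. The capitals mark the only match of the letters TTCAGCACC, the left part of the RE1 element, which lies on the opposite strand.
KCNK3: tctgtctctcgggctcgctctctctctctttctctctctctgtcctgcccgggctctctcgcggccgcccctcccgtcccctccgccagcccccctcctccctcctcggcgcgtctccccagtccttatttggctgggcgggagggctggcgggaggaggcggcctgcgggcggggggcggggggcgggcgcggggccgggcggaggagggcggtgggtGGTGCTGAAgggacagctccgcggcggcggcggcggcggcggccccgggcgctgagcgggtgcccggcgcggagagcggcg
KCNK1: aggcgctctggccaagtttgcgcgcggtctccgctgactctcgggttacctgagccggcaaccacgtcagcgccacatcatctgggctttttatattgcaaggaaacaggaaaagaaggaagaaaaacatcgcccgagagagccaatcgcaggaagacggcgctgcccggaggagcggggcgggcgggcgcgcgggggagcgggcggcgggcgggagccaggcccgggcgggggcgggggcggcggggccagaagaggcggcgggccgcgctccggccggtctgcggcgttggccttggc
KCNK6: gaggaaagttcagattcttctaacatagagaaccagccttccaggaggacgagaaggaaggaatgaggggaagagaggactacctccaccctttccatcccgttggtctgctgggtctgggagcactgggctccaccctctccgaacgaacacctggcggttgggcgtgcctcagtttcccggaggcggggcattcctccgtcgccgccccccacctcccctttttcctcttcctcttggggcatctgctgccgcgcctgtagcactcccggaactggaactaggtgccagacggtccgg
The sequences of *KCNK3* and *KCNK1* were alike in composition, with 39 and 38 CpG dinucleotides, 78.7% and 70.7% G or C, and 7 matches each of the GC box GGGCGG (both strands, overlapping matches counted). That of *KCNK6* had 16 CpG, 61% G or C and 1 GC box. All 35116 RefSeq promoters of this length had medians of 14 CpG and 58.7% G or C, and 45% of them held a GC box, as did 52.4% of the 147 promoters of channel genes, some of which have more than 1 start. TTCAGCACC was in 0.376% of all promoters and in 3 of the 147, those of *KCNK3*, *CACNG3* and *KCNH6*, of which *KCNK3* alone passed the filter on low values. A TATAAA box was in 11.5% of all promoters and in that of *KCNK1* among the 3, where it is on the opposite strand and reads TTTATA. These motifs were chosen after the values were seen, and a match is only a match of letters. The table matched 96 of the 134 channel genes and 21 of the 34 that passed the test.

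Pores of voltage-gated potassium channels, which open on depolarization and end the action potential, were the largest family, with 24 tested members, 7 higher and 4 lower. *KCNB2*, a delayed rectifier of the Shab family, did not pass, at 734 ± 64.6 and 862 ± 83.5.

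Silent subunits, which make no channel alone but join the proteins of the Shab family and alter their gating, had 6 tested members, of which 3 were higher and 0 lower in resistant cells by limma, also at an unadjusted p under 0.05. *KCNG1* (ENSG00000026559, chromosome 20, 51003656 to 51023107) was at 5.08, 22.5 and 14.3 in parental and at 120, 156 and 163 in resistant libraries. This was the channel gene with the highest log2 fold change, 3.49 (with standard error 0.44 and adjusted p = 0.000204 by limma), although the parental libraries differed among themselves by more than 4-fold. *KCNV1* (ENSG00000164794, chromosome 8, 109963636 to 109975771) was at 12.53, 27.3 and 8.13 in parental and at 61.3, 52.5 and 59.1 in resistant libraries, a log2 fold change of 1.95 with groups that did not overlap (with standard error 0.41 and adjusted p = 0.00429 by limma). *KCNG2* was also higher, from 26.6 ± 6.78 to 50.6 ± 4.59, a call that was lost without parental library 1 or any of the resistant libraries (adjusted p between 0.0593 and 0.0904 by limma). *KCNG3*, *KCNS1* and *KCNS3* did not pass, with log2 fold changes of -0.33, -0.49 and -0.23. This grouping of silent subunits was made after the values were seen, and of all genes 17.8% were higher and 19.8% lower.

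Among the other voltage-gated pores *KCNA6* (ENSG00000151079, chromosome 12, 4809334 to 4813318), of the Shaker family, was at 5.35, 1.94 and 0.98 in parental and at 25.04, 23.9 and 32.4 in resistant libraries. Its parental mean of 2.76 was under the limit of 3 reads, with only parental library 1 above it, and each resistant library was well above it (log2 fold change 3.06, standard error 0.53, adjusted p = 0.00144 by limma). The size of this fold change is uncertain, and *KCNA6* entered the test through its resistant values. *KCNC1*, a fast channel of rapidly firing neurons, was at 141, 144 and 164 in parental and at 18.8, 116 and 31.9 in resistant libraries. Resistant library 8 lay near the parental values and set the spread of the group. The log2 fold change of *KCNC1* was -1.83 (with standard error 0.52 and adjusted p = 0.0186 by limma), and -2.56 without resistant library 8. The call was lost when any of parental libraries 1 or 3 or resistant libraries 7 or 9 was left out, with an adjusted p between 0.0515 and 0.0591 by limma. *KCNH8*, an ELK channel of the nervous system, was at 62.4, 36.9 and 45.2 in parental and at 9.39, 17.7 and 24.8 in resistant libraries, lower in each (log2 fold change -1.49, standard error 0.39, adjusted p = 0.0137 by limma), and lost its call without parental library 1 (adjusted p = 0.0569 by limma).

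*KCNH2* (ENSG00000055118, chromosome 7, 150944961 to 150978321), the ERG channel best known for repolarization of the heart, had the highest level per kilobase of all channel genes in both groups. Its values were 3837, 4046 and 3738 in parental and 2062, 2205 and 2396 in resistant libraries, with no overlap. The log2 fold change was -0.80 (with standard error 0.07 and adjusted p = 2.61e-05 by limma). Its share of the voltage-gated pores, summed per kilobase, was 42.7% in parental and 26.4% in resistant cells. The genes around it on the chromosome were also lower, with a median log2 fold change of -0.51 over 50 neighbouring tested genes. With each library centred on those genes (local centring), the log2 fold change of *KCNH2* was -0.34. *KCNQ1*, of the family that makes the slow M-type and cardiac currents, was higher, with a log2 fold change of 0.68, as was *KCNC4* with 0.34. *KCNC4* was close to the threshold (adjusted p = 0.0495 by limma) and kept its call without parental library 3 but not when any other library was left out, with an adjusted p between 0.0708 and 0.133. *KCNQ1* shares 121 exon bases with the RNA gene *KCNQ1OT1* of the opposite strand, which was at 117 in parental and 260 in resistant cells. Whether reads were counted by strand is not given, so reads of such a pair may not be told apart. Of the tested voltage-gated pores that are not silent subunits, 10 did not pass the test, among them the transient Shal channels *KCND1*, *KCND2* and *KCND3*.

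Auxiliary subunits of voltage-gated potassium channels, counted together with the channel regulator *KCNRG*, had 6 tested members, and 0 of them passed by limma. Of the 6, 2 had an unadjusted p under 0.05, both higher. *KCNAB2*, a cytoplasmic beta subunit, had the highest level per kilobase of them and was at 637 ± 112 in parental and 532 ± 140 in resistant cells. *KCNIP2*, which binds the Shal channels, came nearest to the threshold, at 18.96 ± 8.37 and 40.5 ± 13.2 (log2 fold change 1.09, adjusted p = 0.0512 by limma). The other one, *KCNRG*, had a larger log2 fold change, 1.64, but parental library 2 was at 2.60 where the others were at 23.3 and 29.1. *KCNRG* shares 1086 exon bases with *TRIM13* of the same strand, which was at 1143 in parental and 1448 in resistant cells. The division of reads between the pair is uncertain.

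**Figure D2:**
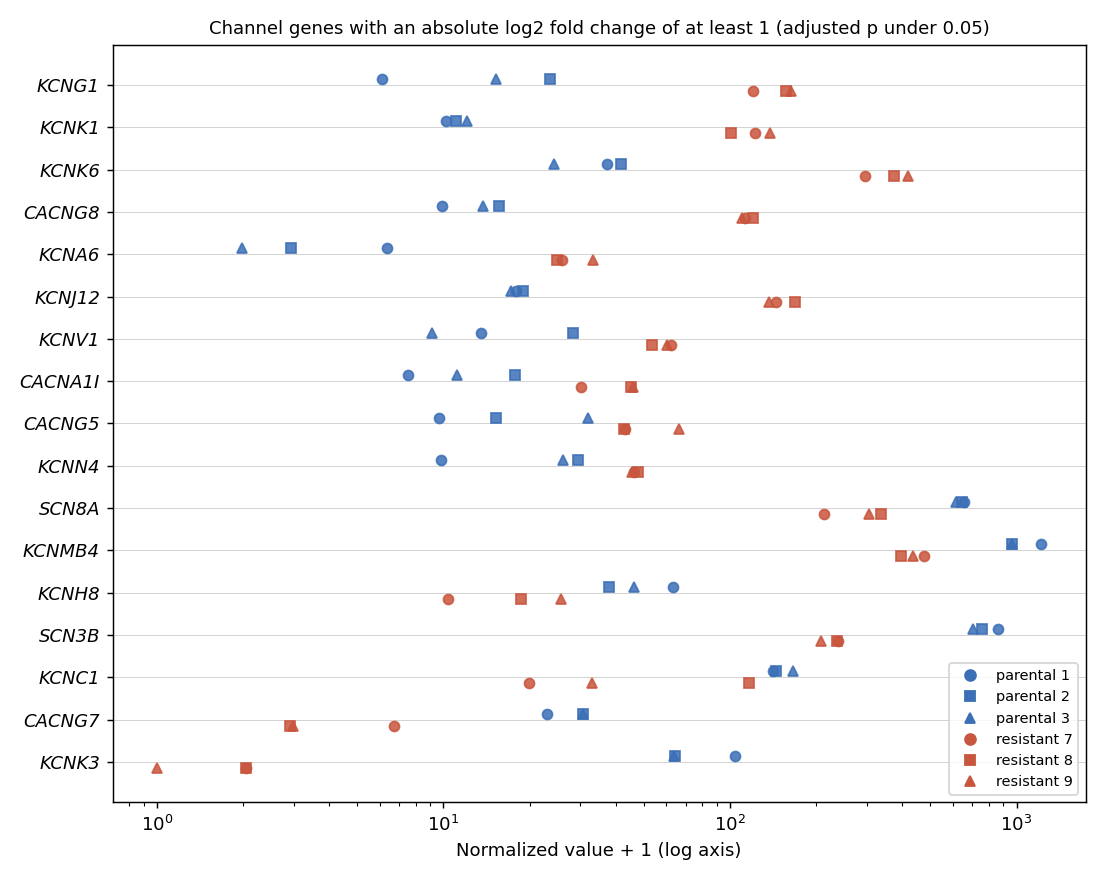
Normalized value plus 1 (horizontal log axis) in each library for 17 of the 18 channel genes with an adjusted p under 0.05 and an absolute log2 fold change of at least 1, from the highest to the lowest fold change; blue marks are parental libraries 1 to 3 and red marks resistant libraries 7 to 9. The groups are apart for every gene drawn, by a wide gap for *KCNK3*, *KCNK1* and *KCNJ12*, and by a narrow one for *KCNC1*, where resistant library 8 is at 116.

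Potassium channels opened by calcium or sodium inside the cell had 5 tested pore genes, 3 higher and 1 lower. *KCNMA1*, the pore of the large-conductance BK channel, was at 326, 295 and 198 in parental and at 442, 449 and 373 in resistant libraries, higher in each (log2 fold change 0.65, standard error 0.18, adjusted p = 0.0176 by limma). Its call was lost without resistant library 7 or 8 (adjusted p = 0.0552 and 0.0632 by limma). *KCNMB4* (ENSG00000135643, chromosome 12, 70366290 to 70434292), the neuronal beta subunit that slows BK gating, was at 1219, 967 and 960 in parental and at 476, 396 and 436 in resistant libraries. The auxiliary subunit thus fell where the pore rose, by a log2 fold change of -1.26 (with standard error 0.12 and adjusted p = 3.27e-05 by limma). Genes around *KCNMB4* were lower as well, with a local median of -0.52, and its log2 fold change with local centring was -0.73. *KCNMB3*, another beta subunit, was at 56.4 ± 7.48 and 66.0 ± 6.19 and did not pass. It shares 3403 exon bases with *PIK3CA* of the opposite strand, at 758 in parental and 911 in resistant cells, so its reads may not be told apart. *KCNN4*, the intermediate-conductance channel of blood and epithelial cells, was at 8.84, 28.4 and 25.1 in parental and at 45.4, 46.6 and 44.6 in resistant libraries. The groups did not overlap, but the low value in parental library 1 carried much of the log2 fold change of 1.25 (limma's adjusted p = 0.0389), which was 0.75 without that library and no longer called (adjusted p = 0.0739 by limma). Leaving out any of the resistant libraries also ended the call, with an adjusted p between 0.0820 and 0.0994 by limma. *KCNN2*, a small-conductance channel, was lower, from 106 ± 6.59 to 63.3 ± 4.38, and its relative *KCNN3* was at 574 ± 49.6 and 609 ± 48.9 and did not pass. The sodium-activated *KCNT1* was higher, from 141 ± 6.17 to 197 ± 12.7, and lost its call without parental library 1 or 2 or resistant library 7 or 8 (adjusted p between 0.0524 and 0.0798 by limma).

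Inward rectifiers (KCNJ genes), which pass potassium most easily near rest, had 7 tested members, of which 3 were higher and 0 lower by limma, also at an unadjusted p under 0.05. The shares of all genes were 17.8% higher and 19.8% lower. *KCNJ12* (ENSG00000184185, chromosome 17, 21376357 to 21419870), a strong rectifier of heart and muscle, was at 17.0, 17.9 and 16.2 in parental and at 144, 168 and 136 in resistant libraries. The libraries of each group lay close together and the groups were 8.76-fold apart (log2 fold change 3.05, standard error 0.23, adjusted p = 8.22e-06 by limma). *KCNJ12* has a near-identical copy, *KCNJ18*, which was listed at 0 in every library, so the division of reads between the pair is uncertain. *KCNJ11*, the pore of the ATP-sensitive channel that couples metabolism to insulin release, had the second highest level per kilobase of the channel genes in parental cells. It was at 1175, 1269 and 1211 in parental and at 1309, 1738 and 1676 in resistant libraries, a small difference with resistant library 7 near the parental values (log2 fold change 0.36, standard error 0.11, adjusted p = 0.0237 by limma). Its call was lost without parental library 1 or 3 or resistant library 8 or 9, with an adjusted p between 0.0667 and 0.0948 by limma. Its regulatory partner *ABCC8*, the sulfonylurea receptor, was also higher, from 112 ± 23.1 to 235 ± 57.6 (adjusted p = 0.00468 by limma), and is named here after its value was seen. *KCNJ9*, a subunit of channels opened by G proteins, was higher, from 36.7 ± 5.45 to 72.9 ± 11.7, and lost its call without resistant library 9 (adjusted p = 0.0521 by limma).

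Pores of voltage-gated calcium channels had 4 tested members, and all 4 passed the test, 2 higher and 2 lower, against 37.7% of all genes. *CACNA1B*, the N-type pore that triggers transmitter release, had the highest level per kilobase of these and was at 1153, 1288 and 1198 in parental and at 840, 872 and 878 in resistant libraries. It was lower in each resistant library (log2 fold change -0.49, standard error 0.08, adjusted p = 0.000944 by limma). The L-type pores parted, *CACNA1C* falling from 516 ± 67.6 to 286 ± 55.8 and *CACNA1D* rising from 233 ± 5.95 to 308 ± 27.5. The call of *CACNA1D* (adjusted p = 0.0324 by limma) was kept without resistant library 9 and lost when any other library was left out, with an adjusted p between 0.0644 and 0.112. *CACNA1I*, a T-type pore that opens at low voltage, was at 6.53, 16.8 and 10.2 in parental and at 29.3, 44.1 and 44.8 in resistant libraries. This low gene rose by a log2 fold change of 1.80 with no overlap (with standard error 0.41 and adjusted p = 0.00627 by limma). Exons of *CACNA1D* overlap those of *CHDH*, a gene of the opposite strand at 2044 in parental and 1549 in resistant cells. The sum of the calcium channel pores per kilobase was 187 ± 11.3 in parental and 146 ± 5.94 in resistant cells, 77.8% of the parental sum. *CACNA1A*, *CACNA1E*, *CACNA1F* and *CACNA1H* were listed at 0 in every library.

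Auxiliary calcium channel subunits had 12 tested members, 2 higher and 2 lower. *CACNA2D2*, an alpha2delta subunit that brings pores to the membrane, was at 1674, 1911 and 1746 in parental and at 920, 1165 and 1058 in resistant libraries, lower in each (log2 fold change -0.77, standard error 0.10, adjusted p = 0.000223 by limma). None of the 4 tested beta subunits, which bind the pore from inside the cell, passed by limma or had an unadjusted p under 0.05, and the one with the highest level per kilobase, *CACNB3*, was at 664, 752 and 573 in parental and at 580, 644 and 695 in resistant libraries. Its log2 fold change was -0.05 (standard error 0.12), with groups that overlapped. Another of the 4, *CACNB4*, shares 2168 exon bases with the protein-coding gene ENSG00000283228 of the same strand. That gene was at 837 in parental and 426 in resistant cells, so the division of reads between the pair is uncertain.

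Gamma subunits *CACNG4*, *CACNG5*, *CACNG7* and *CACNG8* are better known as partners that deliver and gate AMPA-type glutamate receptors. *CACNG7*, *CACNG8* and *CACNG6* stand in a row on the plus strand of chromosome 19 (GRCh38 53909278 to 54012666), with 18.99 kb between the first pair and 1.42 kb between the second. *CACNG7* (ENSG00000105605, chromosome 19, 53909278 to 53943950) was at 22.0, 29.7 and 29.7 in parental and at 5.74, 1.91 and 1.98 in resistant libraries. Resistant libraries 8 and 9 were under the limit of 3 reads and the resistant mean of 3.21 was near it. The size of the fold change of *CACNG7* is therefore uncertain, and it entered the test through its parental values. *CACNG8* (ENSG00000142408, chromosome 19, 53962937 to 53990215) was at 8.92, 14.6 and 12.8 in parental and at 112, 120 and 109 in resistant libraries. These neighbours went in opposite directions without overlap, 8.45-fold lower for *CACNG7* (log2 fold change -2.85, standard error 0.49, adjusted p = 0.00138 by limma) and 9.38-fold higher for *CACNG8* (log2 fold change 3.15, standard error 0.28, adjusted p = 2.19e-05 by limma). *CACNG6* was at 18.6 ± 12.6 and 24.3 ± 6.24 and did not pass. The median log2 fold change of the 50 tested genes around was -0.39 for *CACNG7* and -0.41 for *CACNG8*, and both kept direction and call with local centring. On chromosome 17 *CACNG5* was at 8.67, 14.3 and 31.0 in parental and at 41.9, 41.7 and 65.6 in resistant libraries, higher by a log2 fold change of 1.56 (with standard error 0.44 and adjusted p = 0.0189 by limma), while the next gene, *CACNG4*, had a log2 fold change of -0.03. The call of *CACNG5* was lost without parental library 1 or resistant library 9 (adjusted p = 0.0574 and 0.0723 by limma).

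**Figure D3:**
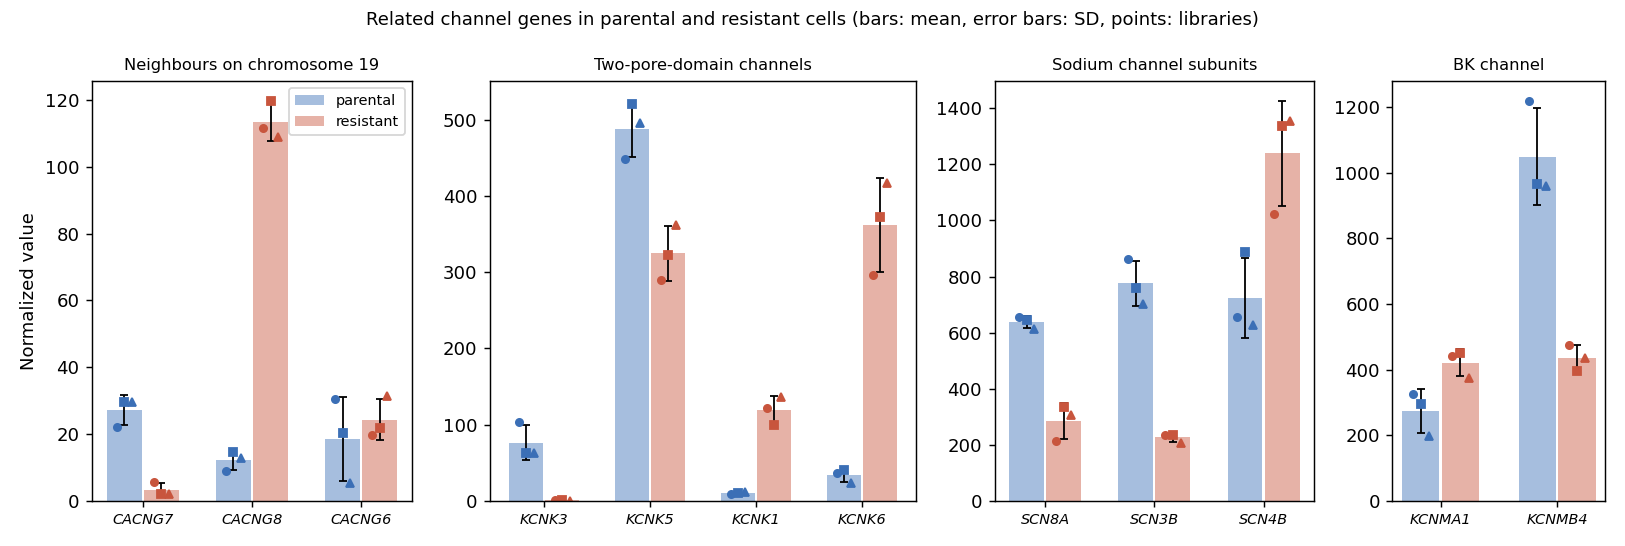
Normalized value (vertical axes, linear, each panel with its own scale) of related channel genes that went in opposite directions; bars are means of 3 libraries, error bars SD, and circles, squares and triangles are libraries 1, 2 and 3 in blue and 7, 8 and 9 in red. *CACNG7* and *CACNG8*, *KCNK3* and *KCNK6*, *SCN3B* and *SCN4B*, and *KCNMA1* and *KCNMB4* each part between the groups.

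Voltage-gated sodium channels, which start the action potential, had 4 tested pore genes, 1 of which was lower and 0 higher by limma, against 2 lower and 1 higher at an unadjusted p under 0.05. *SCN8A* (ENSG00000196876, chromosome 12, 51590266 to 51812864), a main pore of neurons, was at 655, 646 and 614 in parental and at 212, 335 and 305 in resistant libraries. The parental libraries were close together and all resistant libraries were below them (log2 fold change -1.19, standard error 0.16, adjusted p = 0.000301 by limma). The local median around *SCN8A* was -0.28, and with local centring its log2 fold change was -0.80. *SCN3A* and *SCN9A* had log2 fold changes of -0.65 and 0.03 and did not pass. The sum of the pores per kilobase was 103 ± 10.9 in parental and 66.0 ± 16.4 in resistant cells.

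Beta subunits of sodium channels are membrane proteins with an immunoglobulin-like fold that act on gating and on cell adhesion, and 3 were tested. *SCN3B* (ENSG00000166257, chromosome 11, 123629187 to 123655244) was at 864, 759 and 703 in parental and at 236, 234 and 208 in resistant libraries. *SCN4B* (ENSG00000177098, chromosome 11, 118133377 to 118152888) was at 655, 889 and 629 in parental and at 1024, 1338 and 1356 in resistant libraries. The beta subunits thus parted, *SCN3B* being lower in all resistant libraries (log2 fold change -1.77, standard error 0.12, adjusted p = 3.91e-06 by limma) and *SCN4B* higher (log2 fold change 0.78, standard error 0.15, adjusted p = 0.00246 by limma). *SCN4B* made up 39.3% of the tested sodium channel RNA per kilobase in parental and 69.8% in resistant cells.

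**Figure D4:**
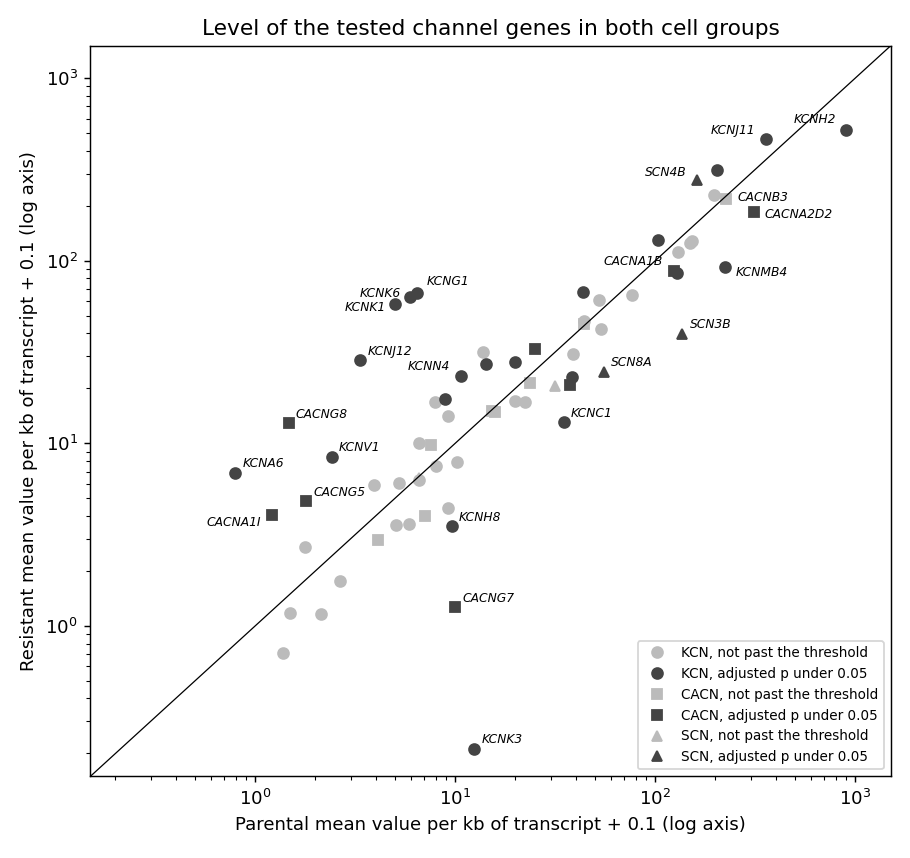
Mean value per kilobase of the Ensembl canonical transcript, plus 0.1, for 70 of the 74 tested channel genes. Parental cells are on the horizontal and resistant cells on the vertical log axis, with equal levels on the diagonal. Dark points passed an adjusted p of 0.05 by limma. *KCNH2* is highest in both groups, at 903 and 518 per kilobase, and *KCNK3* is farthest below the diagonal, at 12.4 and 0.11.

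Summed per kilobase, the 74 tested channel genes were at 4717 ± 335 in parental and 4456 ± 312 in resistant cells, a difference smaller than the SD between libraries. Calcium channel genes were at 855 ± 68.6 and 679 ± 44.5, potassium channel genes at 3450 ± 243 and 3382 ± 216, and sodium channel genes at 411 ± 42.6 and 396 ± 52.7. The strongest members per kilobase kept their rank among the calcium and sodium channel genes only in part, with *CACNA2D2* first in parental and *CACNB3* first in resistant cells, and *SCN4B* first in both.

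At the edge of the filter, *KCNH1* (11.3 ± 5.89 and 8.79 ± 4.78) and *KCNJ10* (8.69 ± 3.80 and 13.6 ± 8.68) lay just inside, and *KCNH4* and *KCNA2* (3.79 ± 1.54 and 11.1 ± 9.70) just outside. *KCNH4*, another ELK channel, was at 18.6, 15.4 and 19.9 in parental and at 0, 0 and 2.18 in resistant libraries. It was below the limit of 3 reads in each resistant library, at least 5.67-fold lower. With a mean of 9.34 it fell outside the filter. It was called without the filter and without each of the resistant libraries (log2 fold change from -4.24 to -3.40, adjusted p between 0.00102 and 0.0056 by limma). Leaving out a resistant library is what brought its mean to 10. Those runs therefore held it through its parental values and add no support. Of the subunits of channels opened by G proteins, *KCNJ3* was at 8.64, 19.4 and 5.94 in parental and at 0.72, 2.87 and 2.90 in resistant libraries, and *KCNJ6* was at 2.87, 6.39 and 9.71 in parental and listed at 0 in every resistant library. By their parental means over the limit of 3 reads, *KCNJ3* was at least 3.58-fold and *KCNJ6* at least 1.999-fold lower in resistant cells. These bounds leave out the spread of the parental values. For *KCNJ6* the value in parental library 1 was under 3.16, the mean limit of the resistant libraries. For *KCNJ3* the high value in parental library 2 carried much of its parental mean. Both were tested only without the filter, where *KCNJ3* was not called (adjusted p = 0.052 by limma) and *KCNJ6* was (adjusted p = 0.00377 by limma). *KCNH5*, of the EAG family, was listed at 0 in every parental library and was at 0.83, 15.8 and 17.1 in resistant libraries, so resistant library 7 was also under the limit. The T-type pore *CACNA1G* was under the limit in each parental library and at 3.79, 3.05 and 3.19 in resistant libraries, which is at the limit too. *KCNC2* and *KCNH6*, a Shaw and an ERG channel, were at 2.89 ± 3.34 and 2.93 ± 1.74 in parental cells, near the limit, and were listed at 0 in every resistant library. In 28 of the 134 channel genes every library of both groups was at or under the limit.

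Genes whose proteins bind, anchor or regulate these channels formed a list of 51 partners, of which 36 were tested, 11 higher and 8 lower (52.8% against the 37.7% of all genes). The called partners with the largest changes were *UNC79*, *NALF2* and *DPP10*. *UNC79*, a part of the complex of the sodium leak channel NALCN, was at 154, 143 and 113 in parental and at 21.5, 13.4 and 7.44 in resistant libraries (log2 fold change -3.29, standard error 0.36, adjusted p = 8.38e-05 by limma). *NALF2*, another protein of that complex, was at 109, 121 and 112 in parental and at 17.7, 16.7 and 11.9 in resistant libraries (log2 fold change -2.83, standard error 0.26, adjusted p = 2.98e-05 by limma). Neither gene overlapped between the groups. *NALCN* itself was at 3.90 ± 1.98 and 1.32 ± 1.14, near the limit of detection, and was not tested. *UNC80*, which joins UNC79 in the complex and is named after its value was seen, was at 80.8, 76.6 and 65.3 in parental and at 23.1, 68.8 and 13.5 in resistant libraries, with resistant library 8 among the parental values (log2 fold change -1.37, adjusted p = 0.0472 by limma). The call of *UNC80* was kept without resistant library 8 and lost when any other library was left out, with an adjusted p between 0.0862 and 0.141. *DPP10*, which speeds the transient Shal channels, was at 44.2, 21.0 and 24.99 in parental and at 101, 134 and 113 in resistant libraries, higher in each (log2 fold change 1.98, standard error 0.30, adjusted p = 0.000603 by limma).

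A list of 54 other cation channel genes, outside the rule for channel genes, had 24 tested members, 6 higher and 4 lower (41.7%, near the 37.7% of all genes). *TRPM5*, the cation channel of taste and tuft cells, was at 149, 227 and 191 in parental and at 524, 754 and 651 in resistant libraries, higher in each (log2 fold change 1.77, standard error 0.18, adjusted p = 5.34e-05 by limma). *CNGB3*, a subunit of the cone photoreceptor channel, was at 18.0, 14.7 and 29.8 in parental and below the limit in each resistant library, at least 6.58-fold lower (adjusted p = 0.00151 by limma). *HCN2*, a pacemaker channel, was at 41.0, 25.2 and 24.6 in parental and at 4.17, 8.33 and 17.3 in resistant libraries, lower in each (log2 fold change -1.67, standard error 0.50, adjusted p = 0.024 by limma). Its call was lost without parental library 1 or resistant library 7 or 8 (adjusted p between 0.0609 and 0.0897 by limma). *CNGB3* and *HCN2* had resistant means of 1.8 and 9.9, under the 10 of the filter, and entered the test through their parental values. *SCN10A*, which the rule leaves out for its second digit, was listed at 0 in every library, and *SCN11A* was at 0.97 ± 0.42 and 2.24 ± 3.87.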

How the data were processed

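Total RNA of 3 parental and 3 resistant libraries was sequenced, with the libraries made with a NEBNext Ultra kit. The authors trimmed reads with Trimmomatic 0.38, quantified genes with RSEM 1.3.1 on GRCh38 with Gencode v43, and normalized with DESeq2 1.30.0. The submitters' processing notes also name STAR, with no version. The deposited table holds this normalized signal, not counts, so the count test of the study could not be used and whole reads were not recovered. In low values between 34.1% and 59.7% were within 0.02 of a whole multiple of the value of 1 read, which gave the estimated depth.

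Symbols and GRCh38 positions were taken from Gencode v44 for 62639 of 62710 rows, after 47 second copies of pseudoautosomal genes were left out of 62757 rows. The comparison used log2(value + 1) of genes whose 6-library mean reached 10. The model in limma 3.58.1 under R 4.3.3 had the group as its single term, eBayes was run with trend, p-values were adjusted by Benjamini-Hochberg at 0.05, and the steps were tested on simulated data. A log2 fold change on this scale understates the change of low genes. Levels are compared between genes only per kilobase of the Ensembl canonical transcript. The local median is that of the log2 fold changes of 50 neighbouring tested genes. Local centring subtracted, in each library, the median deviation of those 50 genes from their parental means. Its result can therefore differ from the log2 fold change less the local median. Tables and figures were made with Python 3.11.15, pandas 2.3.3, numpy 2.4.6 and matplotlib 3.10.9. The genes named were those past the threshold with an absolute log2 fold change of at least 1, the 3 with the highest mean per kilobase among KCN, CACN and SCN genes, those at or under 3 reads in each library of 1 group only, the 2 just inside and the 2 just outside the mean of 10, and up to 3 called genes of each list with the largest change. The other genes named stand for their family. Some genes that enter the counts and sums are not reported here by name or drawn. The members, the lists and the tests were chosen with earlier results of these data known. Alternatives tried were a pseudocount of 0.1 or of 10, all genes or those with a mean of at least 50, upper-quartile scaling, quantile normalization, limma without the trend, local centring and leaving out each library. No gene set test was run.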

Additional observations from a re-analysis of the deposited data

How the results depend on the processing

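No paired analysis was possible because the groups share no replicate numbers (1 to 3 against 7 to 9). The study calls the parental and resistant cells matched, but the labels do not say which library goes with which. The number of higher channel genes, 20, went from 13 to 20 when 1 library was left out. It was 13 without parental library 1 and 13 without resistant library 8, of 74 and 75 genes tested. The number of lower channel genes, 14, went from 12 to 17 in the same settings, so that without resistant library 8 there were 13 higher and 16 lower, and without resistant library 9 there were 15 higher and 17 lower. The median log2 fold change of the channel genes, -0.04, was above 0 with upper-quartile scaling (0.02, where the median of all genes also moved up, to 0.05, and stayed above that of the channel genes) and without parental library 2 (0.06), and lowest with quantile normalization (-0.21). Under the other alternatives the higher genes numbered between 14 and 21 and the lower between 10 and 17. The genes of the lists of partners and other cation channels past the threshold, 29, numbered between 21 and 31.

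Of 34 called channel genes 22 kept their call under every alternative in which they were tested, and of the 18 with an absolute log2 fold change of at least 1, 14 did. The exceptions among the latter were *KCNC1*, *KCNH8*, *KCNN4* and *CACNG5*. *KCNC1*, *KCNN4* and *CACNG5* also lost their call without the trend, and *KCNN4* without the filter and with quantile normalization. The other 8 were *CACNA1D*, *KCNC4*, *KCNG2*, *KCNJ9*, *KCNJ11*, *KCNMA1*, *KCNQ1* and *KCNT1*, of which *KCNQ1* lost its call only without the trend (adjusted p = 0.0715 by limma). No called gene among those named by the rule turned direction. Of those not called, *CACNB3* turned to a log2 fold change of 0.01 with upper-quartile scaling, under the median of all genes there (0.05), and ranged from -0.15 to 0.05 when 1 library was left out, above 0 without parental library 2 (0.05) and resistant library 7 (0.02). *KCNH1* ranged from -0.75 to 0.09, above 0 without resistant library 7. With local centring 33 of the 34 stayed called, *KCNJ11* did not (adjusted p = 0.0578 by limma), and 1 more gene, *KCNQ5*, was called. Apart from the shift of all genes with upper-quartile scaling, the causes of these changes were not tested. Without the filter 120 channel genes were tested, 18 higher and 17 lower. Of those with a mean under 10, *KCNH4* was also tested, and called, without each resistant library, which let it in through its parental values. Depth limits what these low genes can show, and the unit allows no count test.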
